A study of Mus musculus with 24 samples.

Results

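The genes described here are the heat shock proteins, chaperonins and DnaJ co-chaperones of the mouse, chosen by gene name: Hspa, Hspb, Hspd, Hspe and Hsph genes, the Hsp90 genes, Dnaja, Dnajb and Dnajc genes, and the subunits of the CCT chaperonin, without genes marked as pseudogenes. They are 83 of the 38924 genes in the files and carry 82 symbols, since Hspa14 stands against 2 gene IDs. By family they are 12 HSP70, 3 HSP110, 45 DnaJ (4 DNAJA, 13 DNAJB and 28 DNAJC), 3 HSP90, 2 HSP60 and HSP10, 10 CCT and 7 small HSP genes, plus Hspb11, which bears the family name but encodes an intraflagellar transport protein. By the site of the protein, 49 belong to the cytosol, 14 to the endoplasmic reticulum (ER), 9 to mitochondria and 11 to none of these. All 83 had at least 1 count in the 24 libraries.

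The study sequenced ribosome-associated mRNA from the spinal cords of mice of 8 weeks on the strain background B6.CgxB6.129. All mice carried 1 copy of the RiboTag allele of Rpl22 (Rpl+/-), from which Cre recombinase releases a tagged ribosomal protein that an anti-HA antibody pulls down. The Cre allele was Chat-Cre (ChAT-Cre in the labels), which marks cholinergic neurons, in the spinal cord mainly motor neurons. The groups, each of 6 mice with 1 library per mouse, were C201R with Cre (Rpl+/-;Chat+/-;C201R+/-), wild type with Cre (Rpl+/-;Chat+/-;C201R+/+), C201R without Cre (Rpl+/-;Chat+/+;C201R+/-) and wild type without Cre (Rpl+/-;Chat+/+;C201R+/+). C201R is a dominant mutation of Gars, the gene of glycyl-tRNA synthetase, in which mutations cause a hereditary peripheral neuropathy. Mice without Cre make no tagged ribosomes, so their pulldowns give the background of the method. Tagged ribosomes can come from any cell in whose lineage Chat was on, not from motor neurons alone, and the labels give no sex.

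Chaperones hold newly made and damaged proteins in a foldable state. HSP70 proteins bind exposed hydrophobic stretches in a cycle of ATP hydrolysis that DnaJ proteins start and HSP110 proteins help to reset, and they pass some clients on to HSP90. Chaperonins are closed chambers in which proteins fold: HSP60 with its lid HSP10 in mitochondria, and CCT in the cytosol. Small HSPs hold unfolded proteins without ATP. In many cells heat shock factors raise a part of these genes under stress through heat shock elements in their promoters. Motor neurons are known for a high threshold for this induction.

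Total counts per library were 8.9 to 28.3 M. The 83 genes took 1.34 to 2.88% of counts in C201R pulldowns with Cre and 1.01 to 2.18% in wild-type pulldowns with Cre, and 0.233 to 0.742% in C201R and 0.28 to 0.572% in wild-type pulldowns without Cre. A pair of library features move with the groups. Reads assigned to Gm26924, a locus with sequence like ribosomal RNA, had a median share of 26.9% in C201R pulldowns with Cre, against 10.7% in wild-type pulldowns with Cre. The library numbers also fall into 2 runs, called library series 1 and 2 here, whose meaning the labels do not give; with Cre, series 1 holds 3 C201R and 2 wild-type libraries, and series 2 holds 3 and 4. C201R mouse 14003-1 and wild-type mouse 14701-9, both of series 1, stand apart with 15.8% and 17.1% mitochondrial counts. All 7 cholinergic markers listed in the files were higher with Cre than without it, with a median log2 fold change of 4.14, and all 8 oligodendrocyte and all 8 astrocyte markers were lower, with medians of -3.35 and -3.26. Between the genotypes with Cre, 1 of the 7 cholinergic markers was called (Chodl, lower by edgeR), 1 of 8 astrocyte markers (Aldoc, higher), and 0 of 8 oligodendrocyte, 0 of 4 tested microglial, 0 of 8 endothelial and mural and 0 of 5 blood markers. Without mice 14003-1 and 14701-9, Mnx1 (cholinergic) and Itgam (microglial) were also called higher. Of the 5 blood markers, 4 had an unadjusted p under 0.05 by edgeR, the median log2 fold change was 1.21, and DESeq2 called 3 higher in C201R (Hba-a1, Hbb-bs and Hbb-bt). Summed blood markers had 24.03, 150.2 and 515 CPM (lowest, median and highest; counts per M counts, scaled by TMM) in C201R, against 27.03, 48.5 and 157 CPM in wild-type pulldowns with Cre, and their part in the results was not tested. In such bulk samples, fewer cells of a type and less RNA per cell cannot be told apart.

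Per unit of transcript length a handful of members dominated. Deposited TPM values, which scale counts by transcript length and library, allow levels of different genes to be compared. Averaged over the 12 pulldowns with Cre, Hspa8, the constitutive cytosolic HSP70, stood at 3654 TPM and made up 22.4% of the members' summed TPM. Hsp90aa1 and Hsp90ab1, the cytosolic HSP90 proteins, stood at 3531 and 2163 TPM. Dnaja1, a DnaJ partner of Hspa8, followed at 985 TPM. These 4 genes all belong to the cytosolic folding path. The libraries of Hspa8, Hsp90aa1 and Hsp90ab1 lay above those of the genes that follow, while Dnaja1, at 342 to 1733 TPM, overlapped with them. Next came the mitochondrial chaperonin genes Hspd1 (HSP60) and Hspe1 (HSP10) at 438 and 415 TPM, then Hspb8, a small HSP that works with Bag3, at 366.1 TPM and Hsph1, an HSP110 protein, at 365.9 TPM. These 4 neighbours did not separate, since the libraries of each spread over 158 to 791 TPM for Hspe1, 173 to 640.1 TPM for Hspd1, 56.4 to 718 TPM for Hspb8 and 101 to 707 TPM for Hsph1. The 8 genes together held 73.1% of the members' TPM. The stress-inducible cytosolic HSP70 genes were at the other end, Hspa1a at a mean of 4.37 TPM and Hspa1b at 1.58 TPM.

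The first question is how these mRNAs differed between C201R and wild-type pulldowns with Cre. With Cre, 10 members were higher in C201R than in wild-type pulldowns and 0 were lower. They span the core folding path: both cytosolic HSP90 genes and their ER relative, Hspa8, the mitochondrial HSP70 Hspa9, Hsph1, Dnaja1, Dnaja4, and both genes of the mitochondrial chaperonin. The largest change was in Hspe1, 3.02-fold, and the others lay between 1.39-fold and 1.83-fold. The 10 are 13.9% of the 72 members that passed the filter on low counts, against 2.29% of all genes tested that were called higher (edgeR quasi-likelihood test with library series as a term, Benjamini-Hochberg adjusted p under 0.05). Of all genes, 1.82% were called lower and 4.11% in either direction. By DESeq2, 16 members were higher and 1, Hspa12a, was lower, and 9.16% of all genes were called in either direction. The median log2 fold change was 0.20 over the 72 members and -0.01 over all 14634 genes tested. Of the 72 members, 53 lay above 0 and 19 below, and 25 had an unadjusted p under 0.05. Over all 14634 genes, 49.51% lay above 0 and 2687 had an unadjusted p under 0.05.

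**Figure D1:**
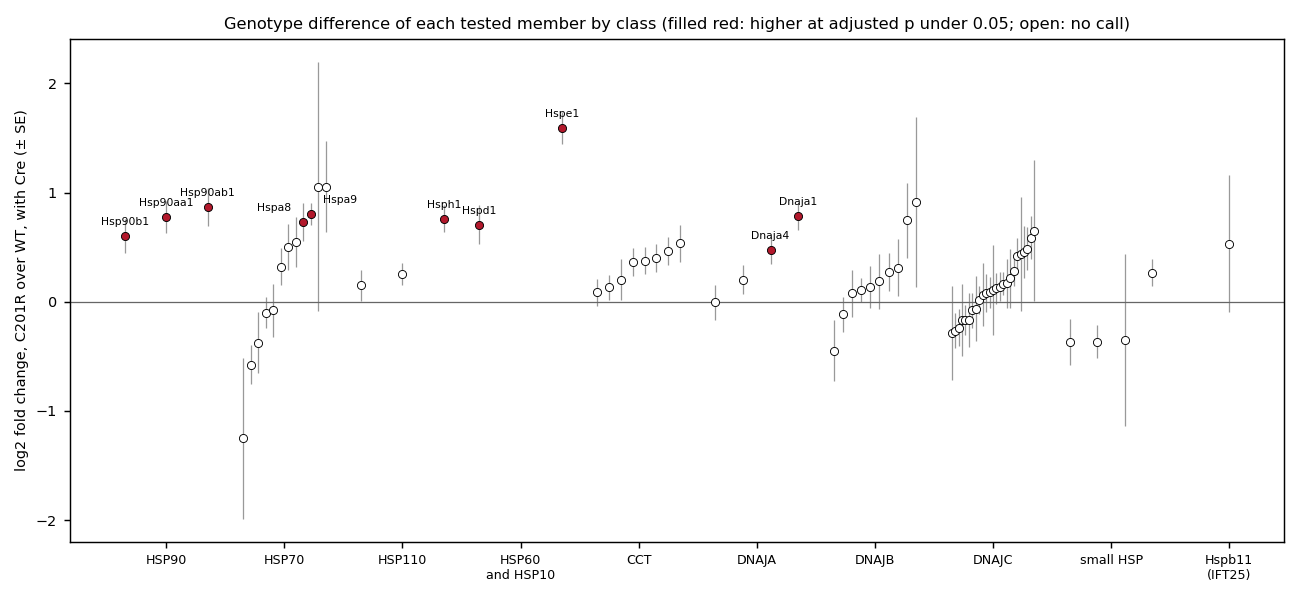
Log2 fold change, C201R over wild type with Cre, of the 72 tested members (vertical axis, points with standard errors), sorted within each family on the horizontal axis. Filled red points passed an adjusted p under 0.05. All 3 HSP90 genes, both genes of the mitochondrial chaperonin and no CCT, DNAJB, DNAJC or small HSP gene are filled.

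Both genes of the mitochondrial chaperonin were called higher in C201R. Hspe1, the HSP10 lid of the chamber, had a lowest, median and highest level of 140.3, 229 and 335 CPM in C201R pulldowns with Cre, against 62.9, 66.5 and 84.1 CPM in wild-type pulldowns with Cre. Every C201R library was above every wild-type library. The log2 fold change was 1.59 ± 0.15 (SE; edgeR adjusted p = 2.4e-05). Hspd1, HSP60 itself, had 479, 618 and 912 CPM in C201R pulldowns with Cre, against 328, 398 and 489 CPM in wild-type pulldowns with Cre. Here 5 of the 6 C201R libraries lay above the highest wild-type one. Its log2 fold change was 0.70 ± 0.18 (edgeR adjusted p = 0.039). Hspa9, the mitochondrial HSP70 that pulls precursors through the import channel and folds them, had 319.9, 350.3 and 415 CPM in C201R pulldowns with Cre, against 189.5, 203 and 212 CPM in wild-type pulldowns with Cre. The groups did not overlap, and within each genotype the 6 libraries lay close together. Hspa9 differed by 0.81 ± 0.10 on the log2 scale (edgeR adjusted p = 0.00036). Without Cre, Hspa9 had 49.9, 59.4 and 92.5 CPM in C201R and 43.6, 59.2 and 95.0 CPM in wild-type pulldowns. These 3 genes were the called ones among the 9 mitochondrial members, all of which were tested. The other 6 lay between -0.17 for Dnajc28 and 0.45 for Dnajc15, a DnaJ protein of the inner membrane, and did not pass. Dnaja3, the mitochondrial DnaJ partner of Hspa9, had a log2 fold change of -0.01 ± 0.16, and Dnajc19, a subunit of the import motor, 0.17 ± 0.22.

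**Figure D2:**
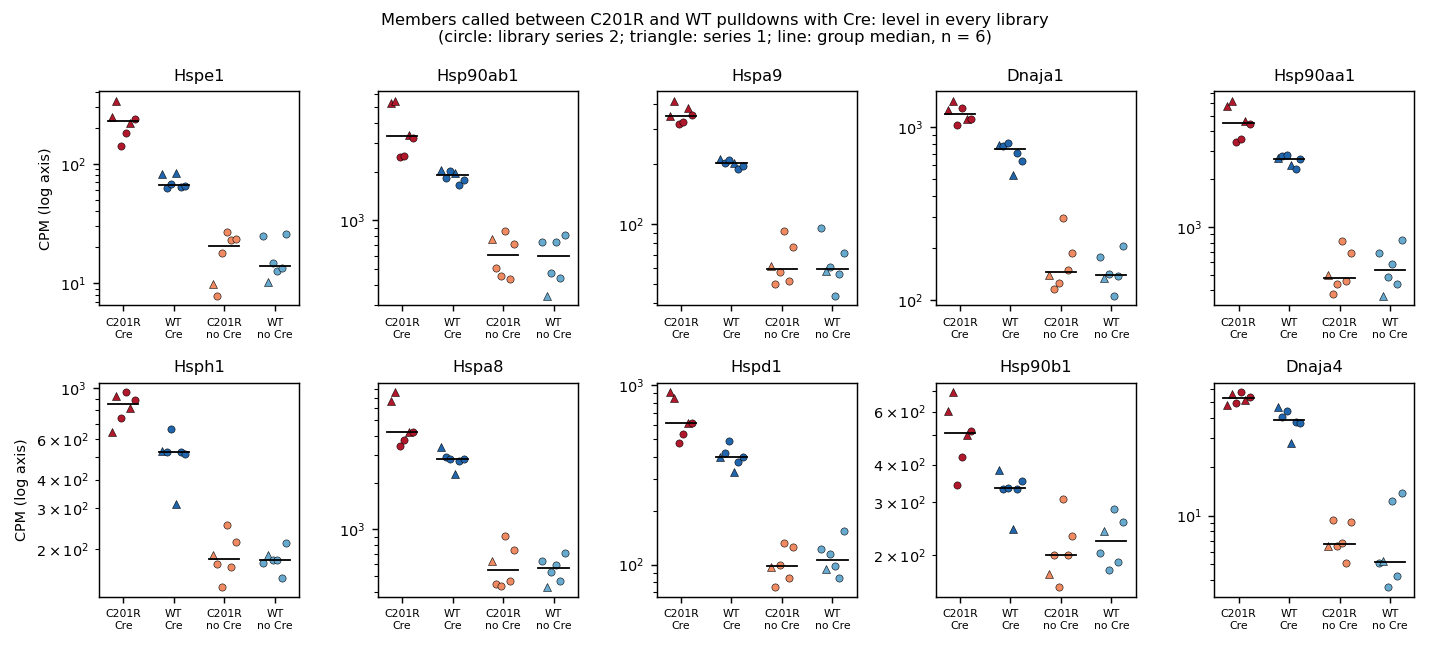
Level of the 10 called members in every library (vertical axes, CPM, logarithmic) by group (horizontal axes, 6 libraries each, circles for library series 2 and triangles for series 1, lines at group medians). Hspe1, Hspa9, Dnaja1, Dnaja4, Hsp90aa1, Hsp90ab1 and Hspa8 show no overlap between C201R and wild type with Cre, and the groups without Cre overlap for all 10.

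Hspe1 and Hspd1 lie head to head on chromosome 1 in the RefSeq annotation of GRCm38.p6, so that the 250 bases before the start of one gene cover much of those before the start of the other. The stretch before Hspe1 is shown because it holds the longest heat shock element found upstream of a called member, 4 units spelled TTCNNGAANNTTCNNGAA (capitals), 89 to 72 bases before the start:
Hspe1, chr1:55087898-55088147, plus strand: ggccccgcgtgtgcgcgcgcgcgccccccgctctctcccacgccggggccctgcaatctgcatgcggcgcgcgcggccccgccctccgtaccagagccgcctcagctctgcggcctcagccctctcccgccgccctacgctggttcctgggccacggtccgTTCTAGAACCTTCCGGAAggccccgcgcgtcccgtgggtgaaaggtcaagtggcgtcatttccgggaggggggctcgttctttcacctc
Read from the Hspd1 side, the same 18 bases (chr1:55088059-55088076) lie 144 to 127 bases before one of the 2 annotated starts of Hspd1. Searched on both strands, 4 such units in a row occur in 8 of the 32851 promoter windows of the table (250 bases before to 50 after a start, 0.0244%), 2 of them these windows. Beside this shared stretch, Hspe1 differed 3.02-fold and Hspd1 1.63-fold between the genotypes. Mob4, which follows Hspe1 on the same strand, had a log2 fold change of 0.01 ± 0.17.

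All 3 HSP90 genes of the list were called higher in C201R. Hsp90aa1, the inducible cytosolic form, had 3453, 4526 and 6190 CPM (lowest, median and highest) in C201R pulldowns with Cre, against 2312, 2697 and 2849 CPM in wild-type pulldowns with Cre. Its log2 fold change was 0.77 ± 0.15 (edgeR adjusted p = 0.0096). The constitutive form Hsp90ab1 had 2462, 3313 and 5448 CPM in C201R pulldowns with Cre, against 1656, 1896 and 2033 CPM in wild-type pulldowns with Cre. For both cytosolic genes every C201R library was above every wild-type one, and the 2 highest were from C201R mice 14003-1 and 14003-4. Hsp90ab1 differed by 0.87 ± 0.17 (edgeR adjusted p = 0.013). Hsp90b1, the HSP90 of the ER, also called GRP94, had 343, 508 and 695 CPM in C201R pulldowns with Cre, against 245, 334 and 384 CPM in wild-type pulldowns with Cre. The groups overlapped, and the difference of 0.60 ± 0.16 was the last to pass (edgeR adjusted p = 0.044). Hsp90b1 passed under 3 of 10 alternative settings and in 3 of 12 fits with 1 library left out. In deposited TPM its median was lower in C201R than in wild type. Of the 14 ER members tested, it was the 1 that was called. Hspa5, the HSP70 of the ER (BiP), had a log2 fold change of 0.32 ± 0.17 (edgeR adjusted p = 0.33), with 162, 195 and 280.2 CPM in C201R pulldowns with Cre and 88.4, 183 and 198 CPM in wild-type pulldowns with Cre. Its DnaJ partners Dnajb9, Dnajb11 and Dnajc3 had 0.19 ± 0.25, 0.27 ± 0.17 and -0.08 ± 0.16 and did not pass.

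Among the cytosolic HSP70 genes, the constitutive Hspa8 was the one called. Its levels were 3451, 4195 and 7570 CPM (lowest, median and highest) in C201R pulldowns with Cre, against 2274, 2837 and 3397 CPM in wild-type pulldowns with Cre. The groups did not overlap, by a narrow margin between the lowest C201R and the highest wild-type library, and C201R mice 14003-1 and 14003-4 stood above the other 4 C201R libraries. The log2 fold change was 0.73 ± 0.17 (edgeR adjusted p = 0.031). Without Cre, Hspa8 had 437, 549 and 907 CPM in C201R and 429, 566 and 708 CPM in wild-type pulldowns. Of the 12 tested HSP70 genes, Hspa8 and Hspa9 were called. The stress-inducible pair, which share nearly the same sequence and so split reads between them, did not pass: Hspa1a had 5.69, 7.66 and 10.96 CPM in C201R pulldowns with Cre, against 3.69, 5.16 and 6.20 CPM in wild-type pulldowns with Cre, and a log2 fold change of 0.55 ± 0.23 (edgeR adjusted p = 0.21). Hspa1b had 1.94, 2.60 and 4.92 CPM in C201R pulldowns with Cre, against 0.877, 1.02 and 2.70 CPM in wild-type pulldowns with Cre, and 1.06 ± 0.42 (edgeR adjusted p = 0.18). Both pairs of groups overlapped. Hspa12a, a distant HSP70 relative expressed in brain, lay on the other side of 0 at -0.58 ± 0.18 (edgeR adjusted p = 0.089), with 133, 297 and 403 CPM in C201R pulldowns with Cre and 172, 520.2 and 592 CPM in wild-type pulldowns with Cre. It was called lower in library series 2 alone, at -0.55, and without mice 14003-1 and 14701-9, at -0.64 (edgeR adjusted p = 0.0032 and 0.0019). More of all genes also passed without these mice, and the share in series 2 is not given here. The 2 IDs of Hspa14 are uncertain, since reads may be split between them, and neither was called.

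Hsph1 was the called gene among the HSP110 proteins, which reset HSP70 by releasing its nucleotide. Its levels were 644, 851 and 958 CPM (lowest, median and highest) in C201R pulldowns with Cre, against 315, 528 and 661 CPM in wild-type pulldowns with Cre. One C201R library, from mouse 14003-1, lay below the highest wild-type library, and the lowest wild-type value came from mouse 14701-9. Hsph1 differed by 0.76 ± 0.12 (edgeR adjusted p = 0.0032). Its relatives Hspa4 and Hspa4l had log2 fold changes of 0.25 ± 0.10 and 0.15 ± 0.14 and did not pass. Hspa4 had 337, 369 and 394 CPM in C201R pulldowns with Cre and 261, 315 and 364 CPM in wild-type pulldowns with Cre, with 4 of 6 C201R libraries above the highest wild-type one.

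DnaJ proteins choose the clients of HSP70. Dnaja1, a general partner of Hspa8, had 1018, 1187 and 1407 CPM (lowest, median and highest) in C201R pulldowns with Cre, against 525, 743 and 809.8 CPM in wild-type pulldowns with Cre. Every C201R library lay above every wild-type library. The log2 fold change was 0.79 ± 0.12 (edgeR adjusted p = 0.0026). Dnaja4, a close relative, had 47.9, 52.9 and 57.5 CPM in C201R pulldowns with Cre, against 27.9, 39.0 and 46.6 CPM in wild-type pulldowns with Cre, without overlap. It differed by 0.47 ± 0.12 (edgeR adjusted p = 0.042). Dnaja2 and Dnaja3 did not pass, with 0.20 ± 0.14 and -0.01 ± 0.16. By edgeR, 0 of the 10 tested DNAJB and 0 of the 25 tested DNAJC genes were called, with 1 and 3 at an unadjusted p under 0.05, and DESeq2 called 1 of them, Dnajc12. Dnajb1, the stress-inducible partner of HSP70, had 14.3, 47.2 and 92.8 CPM in C201R pulldowns with Cre and 18.3, 45.2 and 60.6 CPM in wild-type pulldowns with Cre, the widest scatter of the stress-inducible genes. Its log2 fold change was 0.31 ± 0.26 (edgeR adjusted p = 0.57). Dnajc12, a DnaJ protein that binds aromatic amino acid hydroxylases, had groups that did not overlap, with 15.1, 16.6 and 29.4 CPM in C201R pulldowns with Cre and 10.95, 12.2 and 14.5 CPM in wild-type pulldowns with Cre, and did not pass (0.59 ± 0.20, edgeR adjusted p = 0.12). Without mice 14003-1 and 14701-9 it did, at 0.53 (edgeR adjusted p = 0.037), and more of all genes passed there too.

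The upstream stretches of Dnaja1, Hsph1 and Hsp90b1 are shown beside that of Hspe1 because they span what was found for heat shock elements. They hold a lone pair of units, a pair with a further run after the start, and no such pair. Capitals mark GAANNTTC or TTCNNGAA, the pairs of inverted units that make up a heat shock element; each reads the same on both strands. As with Hspe1, the 250 bases before the start are given (RefSeq, GRCm38.p6):
Dnaja1, chr4:40722218-40722467, plus strand: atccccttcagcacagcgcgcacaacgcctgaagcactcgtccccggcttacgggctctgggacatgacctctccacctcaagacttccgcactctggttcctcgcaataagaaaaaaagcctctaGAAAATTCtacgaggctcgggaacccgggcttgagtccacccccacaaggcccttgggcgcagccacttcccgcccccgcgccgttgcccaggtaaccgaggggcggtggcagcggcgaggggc
Hsph1, chr5:149636337-149636586, minus strand: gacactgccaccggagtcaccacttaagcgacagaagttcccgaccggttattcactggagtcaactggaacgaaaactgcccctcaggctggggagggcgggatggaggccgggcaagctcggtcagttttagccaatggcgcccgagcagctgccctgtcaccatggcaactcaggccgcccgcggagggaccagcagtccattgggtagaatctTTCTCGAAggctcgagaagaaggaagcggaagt
Hsp90b1, chr10:86705445-86705694, minus strand: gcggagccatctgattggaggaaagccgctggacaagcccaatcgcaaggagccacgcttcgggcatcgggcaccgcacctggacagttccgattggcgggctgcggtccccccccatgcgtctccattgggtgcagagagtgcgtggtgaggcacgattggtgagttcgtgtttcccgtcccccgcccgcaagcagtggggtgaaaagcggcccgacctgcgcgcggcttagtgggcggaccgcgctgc
The pair lies 124 to 117 bases before the start in Dnaja1 and 33 to 26 bases before it in Hsph1, which has a further run of 3 units 37 to 49 bases after the start. A neighbouring annotated start of Hsph1 covers the same bases. The other 2 annotated starts of Dnaja1 have no such letters in their windows, and of 2 windows of Dnaja4, 1 holds GAANNTTC, at 90 to 83 and at 52 to 45 bases before the start. GAANNTTC occurs in 7.86% and TTCNNGAA in 8.52% of all promoter windows, and 3 units in a row (GAANNTTCNNGAA or TTCNNGAANNTTC, within which the pairs overlap) in 0.603%. Among 86 windows of the 67 members in the table, 6 hold 3 units (6.98%), those of Hspe1, Hspd1, Hsph1 and Dnajb6. GAANNTTC occurs in 18 (20.9%) and TTCNNGAA in 10 (11.6%) of them. Dnajb6, a DnaJ protein that holds back aggregation, did not pass between the genotypes (0.11 ± 0.11). None of the 11 searched windows of called members holds TGATGNAA, a core of elements of the amino acid response. It occurs in 3.97% of all windows on one strand or the other. Elements particular to the ER stress response were not searched for, also not in the stretch of Hsp90b1. Of the 10 called members, 6 were searched.

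The cytosolic chaperonin CCT was not called by edgeR with all 12 libraries. It folds actin and tubulin in a ring of subunits, of which 8 were tested. All 8 had a log2 fold change above 0 with TMM scaling, with a median of 0.37, while Cct5, Cct6a and Tcp1 lay below 0, at -0.14, -0.13 and -0.22, with library totals as the only scaling. By edgeR 0 were called and 5 had an unadjusted p under 0.05, and DESeq2 called 5, Cct2, Cct3, Cct4, Cct7 and Cct8. Without mice 14003-1 and 14701-9, edgeR called Cct2, Cct3 and Cct7 higher, at 0.39, 0.52 and 0.48 (edgeR adjusted p = 0.033, 0.0091 and 0.025), and in library series 2 alone it called Cct3, at 0.46 (edgeR adjusted p = 0.022). More of all genes passed without these mice than in the main fit, and their share in series 2 is not given here. With all 12 libraries the largest log2 fold change was that of Cct4, 0.54 ± 0.17 (edgeR adjusted p = 0.092). Cct4 had 52.1, 63.2 and 99.9 CPM (lowest, median and highest) in C201R pulldowns with Cre, against 40.9, 48.8 and 55.3 CPM in wild-type pulldowns with Cre. Cct7 came nearest to a call, with 137, 188 and 279 CPM in C201R pulldowns with Cre, against 117, 132 and 149 CPM in wild-type pulldowns with Cre, and 0.46 ± 0.13 (edgeR adjusted p = 0.059). For each of these, Cct2 and Cct8, 5 of 6 C201R libraries stood above the highest wild-type library. Cct3, Cct2 and Cct8 had 0.40 ± 0.13, 0.38 ± 0.13 and 0.36 ± 0.12 (edgeR adjusted p = 0.092, 0.11 and 0.12). Cct6a, Cct5 and Tcp1 had 0.20 ± 0.19, 0.13 ± 0.12 and 0.09 ± 0.12 and lay furthest from a call. Cct6b, the testis form of a subunit, and Cct8l1 had 3 and 27 counts in all 6 C201R libraries with Cre and 6 and 14 in the wild-type ones, too few to be tested.

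No small HSP was called between the genotypes with all 12 libraries: 0 of the 4 tested by edgeR or DESeq2, and 1 had an unadjusted p under 0.05. Hspb1, in which mutations cause a motor neuropathy, had 56.8, 76.3 and 121 CPM (lowest, median and highest) in C201R pulldowns with Cre, against 82.2, 102 and 118 CPM in wild-type pulldowns with Cre. The groups overlapped, and the log2 fold change was -0.36 ± 0.15 (edgeR adjusted p = 0.21). Hspb8, another neuropathy gene, had 141, 229 and 300.4 CPM in C201R pulldowns with Cre, against 119, 209.6 and 226 CPM in wild-type pulldowns with Cre, and 0.27 ± 0.13 (edgeR adjusted p = 0.28). In library series 2 alone 3 passed, Hspb1 at -0.52 (edgeR adjusted p = 0.038), Hspb8 at 0.40 (edgeR adjusted p = 0.028) and Hspb6 at -0.44 (edgeR adjusted p = 0.046). The share of all genes that passed in series 2 is not given here, so these calls are not set against it. Hspb8 lay at -0.03 with library totals as the only scaling. Without mice 14003-1 and 14701-9, where more of all genes passed than in the main fit, Hspb6 was again called lower, at -0.60 (edgeR adjusted p = 0.013). With all 12 libraries Hspb6 and Hspb2 had -0.37 ± 0.21 and -0.35 ± 0.79, and Hspb3, Hspb7 and Hspb9 were too low to be tested. Hspb11, the transport protein, had 0.53 ± 0.63.

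Levels were also summed by family. HSP90 genes summed to 6257, 8346 and 12332 CPM (lowest, median and highest) in C201R pulldowns with Cre, against 4300.2, 4880.2 and 5191 CPM in wild-type pulldowns with Cre. HSP70 genes summed to 4398, 5115 and 8548 CPM in C201R pulldowns with Cre and 2787, 3812 and 4366 CPM in wild-type pulldowns with Cre. DNAJA genes summed to 1225, 1398 and 1642 CPM in C201R pulldowns with Cre, and 663, 947 and 1001 CPM in wild-type pulldowns with Cre. In CPM these 3 families and the mitochondrial chaperonin did not overlap between the genotypes, while in deposited TPM all 4 overlapped. The lowest C201R sum was 5599 TPM for HSP90, against a highest wild-type sum of 5733 TPM, and 2547 TPM for HSP70, against 4864 TPM. DNAJC genes overlapped throughout, at 767, 1120 and 1210 CPM in C201R pulldowns with Cre and 746, 1144 and 1207 CPM in wild-type pulldowns with Cre, and so did small HSPs, at 246, 349 and 407 CPM in C201R pulldowns with Cre and 221, 338 and 386 CPM in wild-type pulldowns with Cre. By site, mitochondrial members summed to 1039, 1314 and 1718 CPM in C201R pulldowns with Cre, and 689.8, 763 and 852 CPM in wild-type pulldowns with Cre. ER members, at 994, 1128 and 1339 CPM in C201R pulldowns with Cre, overlapped with 684, 1010 and 1030 CPM in wild-type pulldowns with Cre. These sums are led by a few abundant genes and were not tested.

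**Figure D3:**
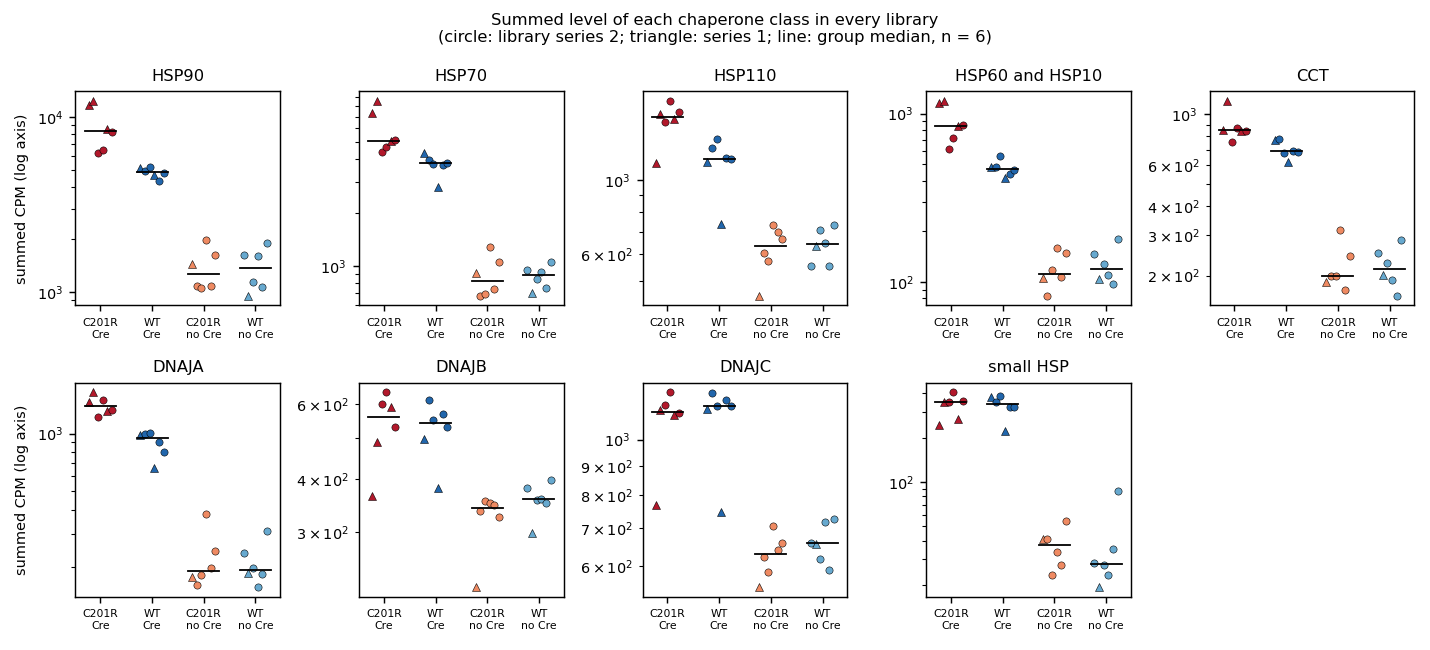
Summed CPM of each chaperone family (vertical axes, logarithmic) in every library by group (horizontal axes, 6 libraries each, circles for library series 2 and triangles for series 1, lines at group medians). With Cre, the C201R and wild-type libraries separate for HSP90, HSP70, DNAJA and HSP60 with HSP10, and overlap for HSP110, CCT, DNAJB, DNAJC and small HSPs; without Cre the genotypes overlap in every panel.

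Group by group, 8 of the 72 tested members (11.1%) had all 6 C201R libraries with Cre above all 6 wild-type ones, against 1.74% of all genes tested. They are Hspe1, Hspa9, Dnaja1, Dnaja4, Hsp90aa1, Hsp90ab1, Hspa8 and Dnajc12. None lay wholly below, against 0.841% of all genes. Without Cre, 0 of the 69 tested members were separated in either direction, against 0.111% of all genes higher and 0.0972% lower.

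The 10 calls were not equally firm. With the mouse number prefix as a block, Hspe1, Hspa9 and Dnaja1 passed and the other 7 did not. Hspe1, Hspa9, Dnaja1, Hsph1 and Hsp90aa1 passed whichever 1 of the 12 libraries was left out, with log2 fold changes of 1.49 to 1.69, 0.75 to 0.83, 0.71 to 0.85, 0.66 to 0.83 and 0.68 to 0.85 and edgeR adjusted p values of at most 0.00018, 0.0025, 0.012, 0.019 and 0.045. Hsp90ab1 missed the threshold without C201R mouse 14703-4 or wild-type mouse 14002-6 (0.76 to 0.96 over all 12, edgeR adjusted p of at most 0.057). Hspa8 did so without any of 8 libraries, Hspd1 without 7, Hsp90b1 without 9 and Dnaja4 without 10, with log2 fold changes of 0.60 to 0.81, 0.58 to 0.80, 0.48 to 0.72 and 0.40 to 0.53 and edgeR adjusted p values of at most 0.12, 0.16, 0.17 and 0.13. Libraries that ended all 4 of these calls were C201R mice 14003-4 and 14703-4 and wild-type mice 14002-6, 14004-3, 14701-9, 14702-3 and 14703-5. Without wild-type mouse 14004-6, Hspa8, Hsp90b1 and Dnaja4 were lost, without C201R mouse 14004-5 Hsp90b1 and Dnaja4, and without C201R mouse 14004-2 Dnaja4 alone.

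Fitted values were higher in library series 1 than in series 2 for all 10, and whether they differ between the series was not tested. Hspa8 differed by 1.19 ± 0.34 in library series 1 (an analysis added after the data were seen) and by 0.43 ± 0.10 in series 2. Hspd1 differed by 1.202 ± 0.32 in series 1 and 0.38 ± 0.12 in series 2, Hsp90b1 by 1.01 ± 0.30 and 0.34 ± 0.12, Hsp90ab1 by 1.30 ± 0.33 and 0.60 ± 0.12, and Hsp90aa1 by 1.16 ± 0.28 and 0.53 ± 0.11. The mitochondrial pair of Hspe1 and Hspa9 had 1.73 ± 0.31 and 0.92 ± 0.27 in series 1 and 1.52 ± 0.15 and 0.75 ± 0.10 in series 2. Dnaja1, Hsph1 and Dnaja4 had 1.02 ± 0.28, 0.97 ± 0.28 and 0.56 ± 0.33 in series 1 and 0.64 ± 0.11, 0.63 ± 0.12 and 0.43 ± 0.12 in series 2. Series 1 has 5 libraries, and 0 members passed in it (edgeR; 1 of all 15668 genes passed). Series 2 alone called 8 of the 10, all except Hspd1 and Hsp90b1. In the 3 series 1 libraries of C201R with Cre, Gm26924 took 32.9 to 43.3% of counts, and in the 3 of series 2 it took 8.01 to 20.9%. With this share as a covariate, 4 of the 10 passed, Hspe1, Hspa9, Dnaja1 and Hsph1. Without mice 14003-1 and 14701-9, whose mitochondrial counts stand apart, all 10 passed, from 0.41 for Dnaja4 to 1.62 for Hspe1.

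**Figure D4:**
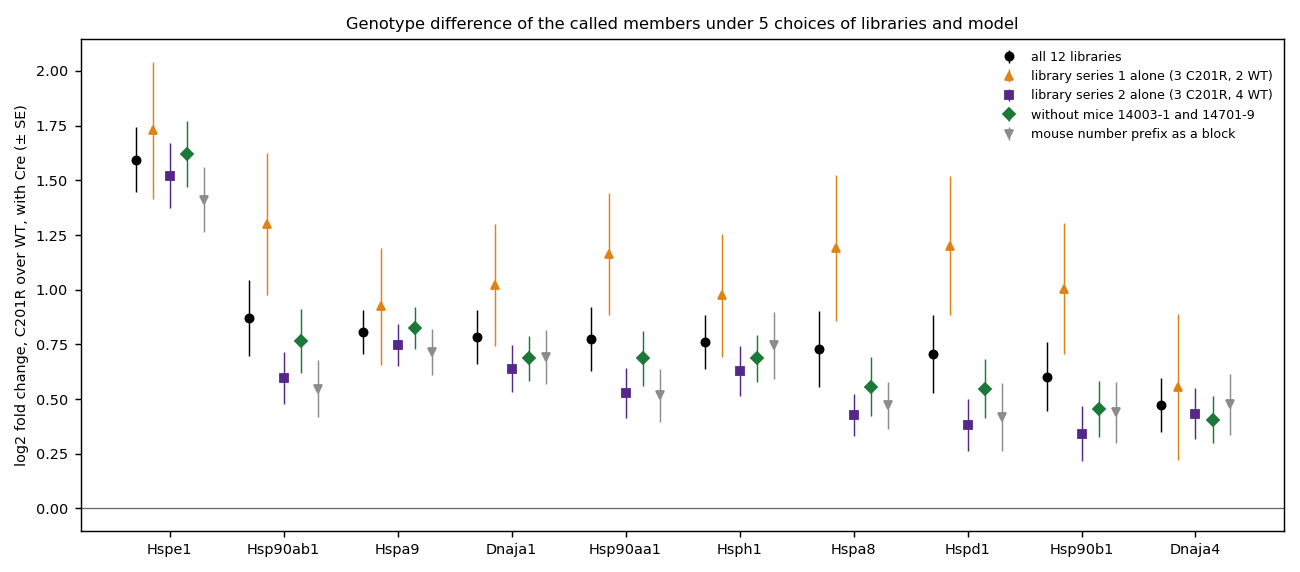
Log2 fold change, C201R over wild type with Cre (vertical axis, points with standard errors), of the 10 called members (horizontal axis) with all 12 libraries, in each library series alone, without mice 14003-1 and 14701-9, and with the mouse number prefix as a block. All values lie above 0; that of series 1 is the highest of the 5 for each of the 10 members.

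The scaling of the libraries matters for these calls. With library totals alone the median log2 fold change of all genes was -0.26, against -0.01 with TMM. The 10 members then lay between 0.17 and 1.32, all above 0, and Hspe1 was the 1 that passed. TPM as deposited, which carry the ribosomal RNA model and mitochondrial transcripts in their total, were nearer to each other: Hspe1 had medians of 577 TPM in C201R and 271 TPM in wild-type pulldowns with Cre, Hspa9 206 and 175 TPM, and Hsp90b1 302 and 325 TPM. Hsp90b1 thus has the lower median TPM in C201R and the higher CPM after scaling.

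In the background RNA of the pulldowns without Cre, 0 members were called by edgeR or DESeq2, and the 69 tested members had a median log2 fold change of -0.01, beside -0.04 over all 14400 genes. By edgeR 0 of all genes passed (0%), 455 had an unadjusted p under 0.05, and among the members 1 did, Dnajc21, a ribosome biogenesis factor, at -0.59 ± 0.20. Hspe1 had 7.91, 20.4 and 26.8 CPM (lowest, median and highest) in C201R and 10.3, 14.1 and 26.0 CPM in wild-type pulldowns without Cre. Its log2 fold change there was 0.10 ± 0.29. The other 9 genes called with Cre lay between -0.11 ± 0.18 for Hspd1 and 0.18 ± 0.21 for Dnaja1 without Cre, each below its own SE. The 6 tested cholinergic markers had a median of -1.05 between the genotypes without Cre. By edgeR 0 of them were called and 3 had an unadjusted p under 0.05, and DESeq2 called 1, Chodl, lower.

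Whether the genotype difference itself depended on Cre was tested as an interaction over all 24 libraries. No member passed, and 21 of 16109 genes did (0.13%; edgeR adjusted p under 0.05). Hspe1 had the largest interaction among genes called with Cre, 1.57 ± 0.40 on the log2 scale (edgeR adjusted p = 0.14), followed by Hsp90aa1 at 0.89 ± 0.31, Hsp90ab1 at 0.89 ± 0.34, Hspd1 at 0.87 ± 0.28, Hspa9 at 0.79 ± 0.25 and Hsp90b1 at 0.71 ± 0.27 (edgeR adjusted p of 0.28 to 0.43). Of the 71 members tested, 10 had an unadjusted p under 0.05, beside 1464 of all 16109 genes. By DESeq2 1 member passed, Hspe1, at 1.62 ± 0.41 (adjusted p = 0.018). By edgeR 0 members passed in each of the 24 fits with 1 library left out. A genotype difference that depends on Cre was thus not established by edgeR for any called gene, and for Hspe1 the 2 tests differ. The 7 cholinergic markers had a median interaction of 1.06, with 0 called by edgeR and 3 at an unadjusted p under 0.05. Their part in the interactions of the members was not tested.

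The pulldowns with Cre were rich in chaperone mRNA compared with those without. Of 71 members tested, 53 were higher with Cre (74.6%, against 33.1% of all genes tested) and 10 were lower (14.1%, against 37.2%; 70.3% of all genes in either direction), with 8 showing no call (edgeR adjusted p under 0.05, both genotypes pooled). The median log2 fold change was 1.36 over the members and -0.12 over all 16109 genes. With library totals alone the medians were 2.01 and 0.55, and 59 members were higher and 2, Dnajc1 and Hspb11, lower. The shares of all genes above are from TMM scaling and are no background for these counts. Shares with library totals are not given here. Every tested member of the CCT, DNAJA, HSP90 and HSP60 with HSP10 families was higher with Cre. The 12 libraries with Cre lay wholly above the 12 without for 28 members (39.4%, against 10.1% of all genes), and wholly below for 1, against 7.63% of all genes.

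**Figure D5:**
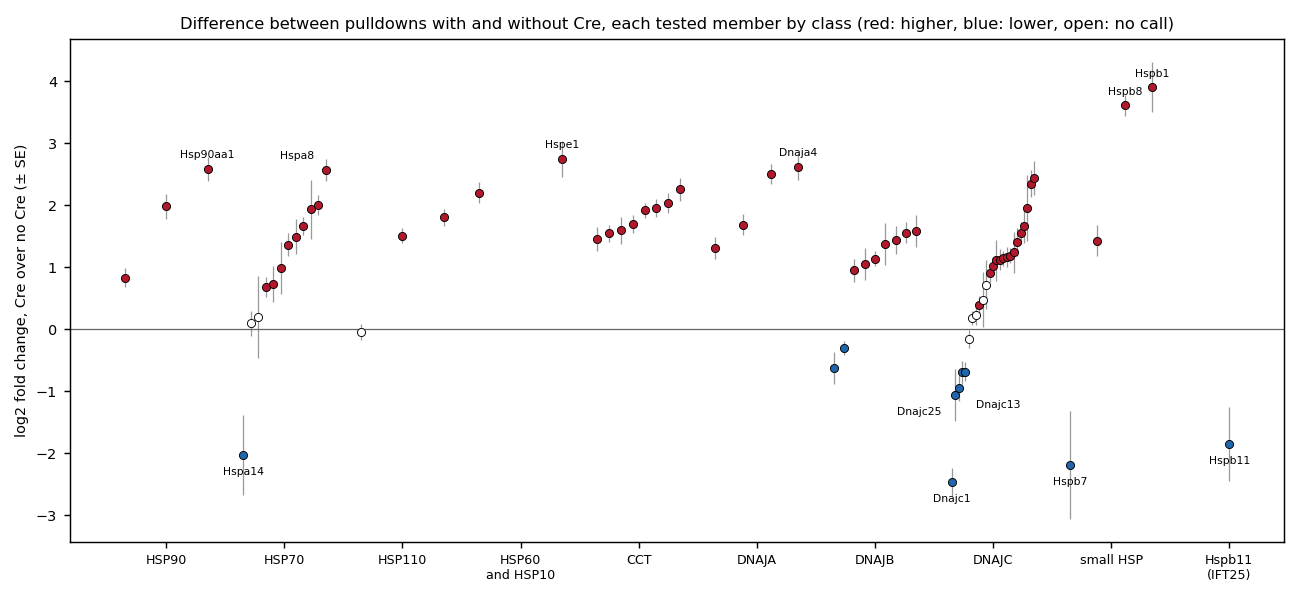
Log2 fold change, Cre over no Cre in both genotypes (vertical axis, points with standard errors), of the 71 tested members by family (horizontal axis). Red points passed as higher, blue points as lower and open points had no call; Hspb1 at 3.90 and Hspb8 at 3.61 are the highest and Dnajc1 at -2.46 the lowest.

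A pair of small HSPs had the highest fold changes. Hspb1 had 56.8, 84.0 and 121 CPM (lowest, median and highest) in the 12 pulldowns with Cre, against 1.08, 4.20 and 22.4 CPM in the 12 without. Its log2 fold change was 3.90 ± 0.41 (edgeR adjusted p = 1.7e-08). Hspb8 had 119, 212 and 300.4 CPM with Cre, against 10.6, 15.6 and 33.3 CPM without Cre, with 3.61 ± 0.17 (edgeR adjusted p = 2.9e-16). Neither gene's libraries overlapped between pulldowns. Bag3, the co-chaperone that binds Hspb8, was higher with Cre by 3.73 ± 0.22 (edgeR adjusted p = 1.1e-14). Hspb6 followed at 1.43 ± 0.25, while Hspb7, a small HSP of heart muscle, was lower with Cre, at -2.19 ± 0.87 (edgeR adjusted p = 0.026), on levels of at most 2.56 CPM with Cre and 7.86 CPM without Cre.

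Several genes called between the genotypes were also higher with Cre than without it. These fold changes pool both genotypes and so include the C201R libraries in which the genes were called higher, which raises them. They are not independent of the genotype calls, and enrichment within wild type alone was not fitted. Hspe1 had 62.9, 112 and 335 CPM with Cre, against 7.91, 16.3 and 26.8 CPM without Cre, and a log2 fold change of 2.75 ± 0.29 (edgeR adjusted p = 7.6e-09). Dnaja4 had 27.9, 47.2 and 57.5 CPM with Cre, against 3.64, 6.49 and 13.8 CPM without Cre, and 2.62 ± 0.21 (edgeR adjusted p = 5.3e-12). Hsp90aa1 and Hspa8 had 2.58 ± 0.19 and 2.58 ± 0.18 (edgeR adjusted p = 1.6e-12 and 2.9e-13), with medians of 3151 and 3424 CPM with Cre, against 494 and 566 CPM without Cre. None of the 4 overlapped between pulldowns with and without Cre, so their wild-type libraries with Cre also lay above all libraries without Cre. The 8 tested CCT subunits lay between 1.45 ± 0.19 for Cct3 and 2.26 ± 0.19 for Cct7 and were all called. Of the called genes Hsp90b1 was enriched least, by 0.83 ± 0.15 (edgeR adjusted p = 2.7e-05).

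Of the 10 members lower with Cre, 5 were DNAJC and 2 were DNAJB genes. Most tested members of these families were higher with Cre, 15 of 25 DNAJC and 7 of 9 DNAJB genes. Dnajc1, an ER membrane DnaJ protein, had 3.66, 5.32 and 13.5 CPM with Cre, against 17.7, 30.5 and 49.3 CPM without Cre, and a log2 fold change of -2.46 ± 0.23 (edgeR adjusted p = 1.1e-10). It was the 1 member whose libraries with Cre lay wholly below. The ID ENSMUSG00000079615 of Hspa14 had -2.03 ± 0.65 and Hspb11 -1.86 ± 0.59, both lower with Cre at overlapping levels. The highest Hspb11 libraries with Cre were mice 14003-1 and 14701-9, and without both its value was -2.27. Dnajc25 and Dnajc13, an endosomal DnaJ protein, had -1.06 ± 0.42 and -0.95 ± 0.21. Dnajc19, Dnajc16, Dnajb5 and Dnajb14 had -0.70, -0.68, -0.63 and -0.31, and with library totals alone Dnajb5 and Dnajb14 lay above 0, at 0.06 and 0.36. Of the 10, Dnajc1 and Hspb11 passed under that scaling. ER members as a group had a median of 0.76 with 9 of 14 higher and 4 lower. Cytosolic members had a median of 1.51 with 32 of 39 higher and 3 lower, and mitochondrial members 1.31 with 7 of 9 higher and 1 lower. Hspa4l, an HSP110 protein abundant in testis, did not pass, with 144, 321 and 395 CPM with Cre and 167, 330.1 and 437 CPM without Cre.

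Some partners of these chaperones were also higher in C201R. Of 20 cytosolic co-chaperones of HSP70 and HSP90 tested with Cre, 5 were higher in C201R (against 2.29% of all genes tested) and 0 lower (against 1.82%), with a median log2 fold change of 0.37 beside -0.01 over all genes. The 4 with the smallest p were Stub1 (CHIP, the ubiquitin ligase that tags clients of HSP70) at 0.73 ± 0.16, Sugt1 (an HSP90 adaptor) at 0.87 ± 0.20, Stip1 (HOP, which joins HSP70 to HSP90) at 0.57 ± 0.14 and St13 (HIP, which stabilises HSP70 with its client) at 0.67 ± 0.17 (edgeR adjusted p = 0.020, 0.030, 0.037 and 0.038). Stip1 had 251, 280.3 and 376 CPM (lowest, median and highest) in C201R pulldowns with Cre, against 131, 212 and 241 CPM in wild-type pulldowns with Cre, without overlap. Of 7 prefoldin and phosducin-like genes, which feed CCT, 2 were higher, the prefoldin subunits Pfdn4 at 0.86 ± 0.19 and Pfdn5 at 0.68 ± 0.17 (edgeR adjusted p = 0.023 and 0.037).

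In mitochondria, 2 of 12 partner genes were higher in C201R with Cre (against 2.29% of all genes tested) and 0 lower (against 1.82%), with a median of 0.06. Trap1, the mitochondrial HSP90 protein, and Grpel1, which resets Hspa9, were not among them, at -0.09 ± 0.14 and 0.00 ± 0.20. Lonp1, the matrix protease that degrades misfolded proteins, had 27.0, 32.6 and 56.5 CPM (lowest, median and highest) in C201R pulldowns with Cre, against 13.04, 14.6 and 18.7 CPM in wild-type pulldowns with Cre. The groups did not overlap, and Lonp1 differed by 1.17 ± 0.17 (edgeR adjusted p = 0.0018). Pam16, a subunit of the import motor that works with Hspa9, differed by 0.93 ± 0.21 (edgeR adjusted p = 0.024). Of 12 ER partners, 0 were called by edgeR, 5 had an unadjusted p under 0.05, and DESeq2 called 3 higher (Canx, Pdia6 and Manf); the median was 0.24. Of 4 genes of heat shock factors and their binding protein, 0 were called by edgeR or DESeq2 and 0 had an unadjusted p under 0.05. Hsf1, the main stress-activated factor, had 3.10, 10.9 and 21.3 CPM in C201R pulldowns with Cre and 6.61, 16.8 and 20.95 CPM in wild-type pulldowns with Cre. With library totals as the only scaling, 0 genes of these 5 lists passed, and 1, Lonp1, passed with the share of Gm26924 as a term of the fit and likewise with the mouse number prefix as a block. Without the library series term, Stip1, Sugt1 and Lonp1 passed. In library series 2 alone, 4 co-chaperones, 2 prefoldin subunits, 2 ER partners (Pdia6 and Manf) and 2 mitochondrial partners were called higher. Without mice 14003-1 and 14701-9 the counts for these lists were 6, 3, 3 (Canx, Pdia6 and Manf) and 2. Each of these 2 settings also called 2 genes lower, Fkbp5, an HSP90 co-chaperone, and Yme1l1, a protease of the inner mitochondrial membrane. DESeq2 with all 12 libraries called 8 co-chaperones, 4 prefoldin and phosducin-like genes and 2 mitochondrial partners, all higher. The share of all genes called differs between settings. Without Cre, 0 genes of these lists were called by edgeR or DESeq2, and 1, an ER partner, had an unadjusted p under 0.05. The lists were chosen with earlier results of these data known.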

How the data were processed

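Expected counts and TPM per gene were deposited by the authors, 1 table per library, as RSEM 1.2.12 writes them, with Bowtie2 2.2.0 also named per the submitters' processing notes. RSEM divides reads that fit several genes, so near-identical members such as Hspa1a and Hspa1b, and the 2 IDs of Hspa14, are uncertain. The genome build and annotation are not given in the sources used here. Members were matched by name, and 9 pseudogenes were left out; 11 loci named as pseudogenes of members held at most 0.66% of the summed counts of parent and pseudogenes in any group with Cre.

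Expected counts were rounded and tested in R 4.3.3 with edgeR 4.0.16 (filterByExpr with a minimum count of 10, TMM scaling, robust quasi-likelihood test, library series as a covariate), with Benjamini-Hochberg adjustment over all genes tested. The genotype was tested within the 12 libraries with Cre and within the 12 without, and the Cre effect and the interaction over all 24. Printed CPM use 1 TMM scaling over the 24 libraries. The test was checked on simulated data. DESeq2 1.42.0, other scalings, covariates and left-out libraries were tried as alternatives. Replicates are separate mice; within-group pairs of libraries differed by more than sampling noise (variance 24 times the Poisson value or more). Named with values were the members called between the genotypes with Cre, the 8 with the highest mean TPM with Cre, the 6 most enriched and 6 most depleted with Cre, all CCT subunits, and Hspa1a, Hspa1b, Dnajb1 and Hspb1; of each companion list, up to 4 called genes with the smallest p. Other genes named were chosen with their values seen. The members and lists were chosen with earlier results of these data known.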

Additional observations from a re-analysis of the deposited data

Results flagged for a closer look

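In 17 of the 124 groups of 6 libraries examined over 31 named members (13.7%), 1 library stood far from the other 5 by Dixon's criterion, which flags about 1 group in 20 by chance. Of these, 9 concern mice 14003-1 and 14701-9. Wild-type mouse 14701-9 with Cre was lowest for Hsp90b1 at 245 CPM (next library 333 CPM), Hsph1 at 314.6 CPM (516 CPM), Tcp1 at 87.35 CPM (144.5 CPM) and Dnajc13 at 5.945 CPM (17.6 CPM). It was highest for Hspb11 at 36.91 CPM (6.38 CPM) and Hspb7 at 2.56 CPM (0.316 CPM). C201R mouse 14003-1 with Cre was likewise lowest for Dnajc13 at 5.887 CPM (14.6 CPM) and highest for Hspb11 at 58.56 CPM (10.9 CPM). It was also highest for Cct8l1 at 2.324 CPM (0.371 CPM).

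The others lie elsewhere, several at a few CPM or less. Cct6b was highest in C201R mouse 14003-4 with Cre at 0.1215 CPM (0.0317 CPM), in C201R mouse 14004-7 without Cre at 1.262 CPM (0.109 CPM) and in wild-type mouse 14701-1 without Cre at 0.3314 CPM (0.101 CPM). Dnajc25 was lowest in C201R mouse 14702-9 without Cre at 0.8806 CPM (3.25 CPM), and Cct6a in wild-type mouse 14702-5 without Cre at 6.22 CPM (9.03 CPM). The ID ENSMUSG00000079615 of Hspa14 was highest in C201R mouse 14003-2 without Cre at 12.52 CPM (3.60 CPM). Wild-type mouse 14702-6 without Cre was highest for Cct7 at 46.73 CPM (31.0 CPM) and Hspb8 at 33.34 CPM (15.8 CPM).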

How the results depend on the processing

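With Cre, 10 members were called between the genotypes, and the count was 7 to 13 without a library series term, without a filter on low counts, with RLE scaling and in library series 2 alone. It was 1 with library totals as the only scaling (Hspe1), 17 by DESeq2, 4 with the Gm26924 share as a covariate, 16 without mice 14003-1 and 14701-9, and 0 in library series 1 alone, a setting added after the data were seen. Of all genes, 0.219%, 9.16%, 0.779%, 13.3% and 0.00638% passed under these. For the settings with 7 to 13 calls, shares of all genes are not given here. Those counts therefore do not show whether members moved apart from all genes. Some counts also hold calls in both directions. The 13 in library series 2 alone were 8 of the 10, Cct3 and Hspb8, all higher, and Hspb1, Hspa12a and Hspb6, lower. Of the 16 without mice 14003-1 and 14701-9, Hspa12a and Hspb6 were lower, as was Hspa12a by DESeq2. Labels give no paired numbers; with the shared prefix of the mouse number as a replicate block, 3 members passed (Hspe1, Hspa9 and Dnaja1) and 0.513% of all genes, and prefixes found in 1 genotype carry no comparison. Leaving out 1 library gave 5 to 11, with 5 without C201R mouse 14703-4 or wild-type mouse 14002-6, and the shares of all genes are likewise not given. The 10 members lay above 0 under every alternative run.

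Without Cre the count was 0 under all 8 alternatives and 12 left-out libraries; the setting without mice 14003-1 and 14701-9 does not touch it. For Cre over no Cre, 63 members were called, and 45 to 64 under the 9 alternatives and 59 to 64 with 1 library left out. Of all genes 70.3% were called in the main fit, and shares under the other settings are not given here. For the interaction the count was 0, except 1 by DESeq2 (Hspe1). The causes of these shifts were not tested. Few libraries limit the comparison within library series 1, and low counts limit the 11 members not tested with Cre.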

Other observations

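Hsf2, the gene of a heat shock factor of development and differentiation, varied among the background libraries over a range wider than those of the called chaperones. It had 26.98, 199 and 324 CPM (lowest, median and highest) in C201R pulldowns with Cre and 26.7, 127 and 296 CPM in wild-type pulldowns with Cre. Without Cre it had 16.6, 1809 and 4140 CPM in C201R and 13.1, 3039 and 8761 CPM in wild-type pulldowns. The log2 fold change with Cre over no Cre was -4.26 ± 0.98 (edgeR adjusted p = 0.00065). Hsf1 in the same libraries without Cre ranged from 2.54 to 14.5 CPM in C201R and 6.07 to 15.0 CPM in wild type, and was higher with Cre by 0.61 ± 0.25 (edgeR adjusted p = 0.032).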
